A study of Sus scrofa with 60 samples.

Results

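Livers of neonatal pigs that received parenteral nutrition with a soy lipid emulsion after bile duct ligation (SLE-BDL, 11 pigs) were compared with livers of healthy, enterally fed, sham-operated pigs (ENT-sham, 12 pigs). These 23 pigs, of 60 in the series, were taken by the diet and the surgery written in their sample titles, and every named gene was examined. The comparison therefore asks what PN with soy lipid and ligation did together. Pigs of 4 other groups entered the statistical model, and SLE-sham (10 pigs), ENT-BDL (10 pigs) and MLE-BDL (8 pigs) are cited where they show which step moved a gene.

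All pigs were Landrace × Hampshire crosses of both sexes, delivered before term by Caesarean section, and had surgery on day 1. In SLE-BDL pigs the cystic and common bile ducts were tied off, and PN carried the soybean oil emulsion Intralipid, for which the labels write IL. ENT-sham pigs had the same operation without ligation and received a milk replacer formula through an orogastric tube, and they too were started on PN before full feeds. Livers were taken on day 14. Because feeding route, nutrient mix and lipid source changed together between ENT and SLE, these cannot be told apart. A homogenate of whole liver was sequenced, so fewer cells of one type and less RNA per cell cannot be told apart either.

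Bile acids are made from cholesterol in hepatocytes, pumped into the canaliculus and carried off through ducts lined by cholangiocytes. When the duct is closed, bile acids back up, hepatocytes shift export to their blood side, and small ducts multiply in what is called a ductular reaction, often with matrix deposition and inflammatory cells. PN bypasses the gut, feeds the liver through systemic veins, and in infants can by itself be followed by cholestasis.

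The libraries held between 14776809 and 21139248 reads counted on named genes (median 17311445), on 18595 to 20559 genes each, and the 10 most abundant genes took 15.5% to 23.1% of them. Values are CPM, read counts scaled to each library's TMM-adjusted total, and differences are log2 fold changes of SLE-BDL over ENT-sham with the standard error (SE) and Benjamini-Hochberg adjusted p of the quasi-likelihood test of edgeR. A gene was called when its adjusted p was under 0.05 and its fold change above 2. Each title also holds an identifier number of unstated meaning. Of 7 such numbers among these pigs, 4 occurred in both groups, with 5 pigs in each group, 2 in each, 1 in each, and 1 ENT-sham against 2 SLE-BDL pigs.

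The library labelled ENT-sham replicate 2 stood apart from its group. It was almost the same as the library labelled ENT-BDL replicate 1, with a chi-square per degree of freedom of 1.87 over 17232 genes, while the closest of 66 pairs within ENT-sham gave 18.66 and the closest of 55 pairs within SLE-BDL gave 22.14. Of 1395 genes that were called without it, it lay nearer to the SLE-BDL median than to the ENT-sham median in 911 (65.3%). In 619 (44.4%) it lay nearer to the median of the 9 other ENT-BDL pigs than to either of these medians. It lay outside the range of the other 11 ENT-sham pigs in 774, and in 752 of these on the side of SLE-BDL. Which pig or surgery this RNA came from was not tested, so results are given with all pigs and without this library.

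With all pigs, 1191 of 16210 tested genes were called (7.35%), of which 661 were higher in SLE-BDL (4.08%) and 530 lower (3.27%). At any fold, 5870 genes passed the adjusted p (36.2%), 3097 of them higher and 2773 lower. Counts of list members given below are to be read beside these shares of all tested genes. Without ENT-sham replicate 2 the call covered 1395 of 16179 genes (8.62%), with 827 higher (5.11%) and 568 lower (3.51%), and 6120 passed at any fold (37.8%). Both fits called 1144 genes in the same direction, 251 were called without replicate 2 alone, and 47 with all pigs alone. The ranges of the 2 groups did not overlap for 239 tested genes (1.47%), with SLE-BDL above in 93 (0.574%) and below in 146 (0.901%). Without replicate 2 this rose to 596 genes (3.68%), 280 above (1.73%) and 316 below (1.95%). Among called genes the groups were separate in 129 of 1191 (10.8%), and in 338 of 1395 (24.2%) without replicate 2.

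**Figure D1:**
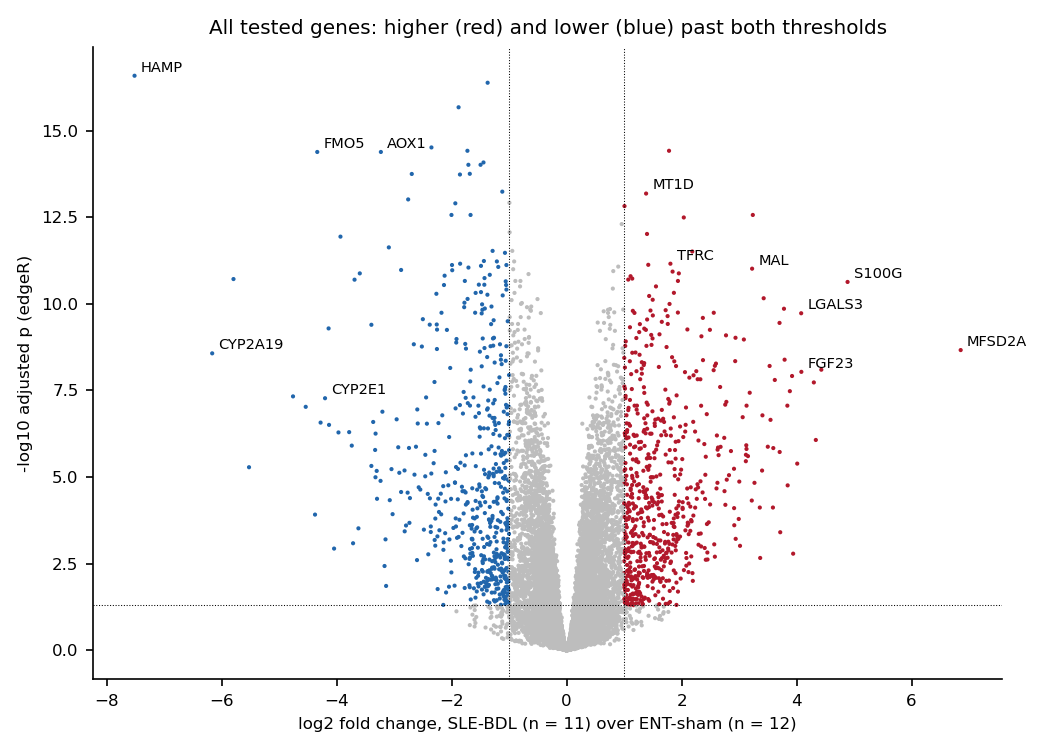
Each point is 1 of the 16210 tested genes, with the log2 fold change of SLE-BDL over ENT-sham on the horizontal axis and -log10 of the adjusted p on the vertical axis. Red marks the 661 genes called higher, blue the 530 called lower, and HAMP lies farthest to the left at -7.52.

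The 15 largest rises among abundant genes included those of S100G, LGALS3, ANKRD33, S100A2, SDS, MAL, DERL3, TNFRSF12A, NOCT, TIMP1, ETNPPL, PFKFB3, S100A6 and CDH16. The 15 largest falls were those of HAMP, FMO5, CYP2E1, UOX, ESM1, ADH4, AOX1, LEPR, FMO1, SLCO1A2, NUGGC, FST, HSD17B13, G6PC and IGFBP1. All 30 were called in each of 23 fits that left out 1 pig. Groups did not overlap for 14 of them, and for 23 without ENT-sham replicate 2, which was the highest ENT-sham pig in 11 of the rises and the lowest in 9 of the falls. Within the shared identifier numbers, all 30 differed in the same direction as the whole comparison in the 3 numbers with as many pigs of each group. In the number with 1 ENT-sham and 2 SLE-BDL pigs 29 did so, and the exception was NOCT (-0.16). The 30 genes were picked by their change in these same pigs. Sameness of direction within numbers and of calls over the 23 fits was therefore largely fixed beforehand and is no independent support.

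**Figure D2:**
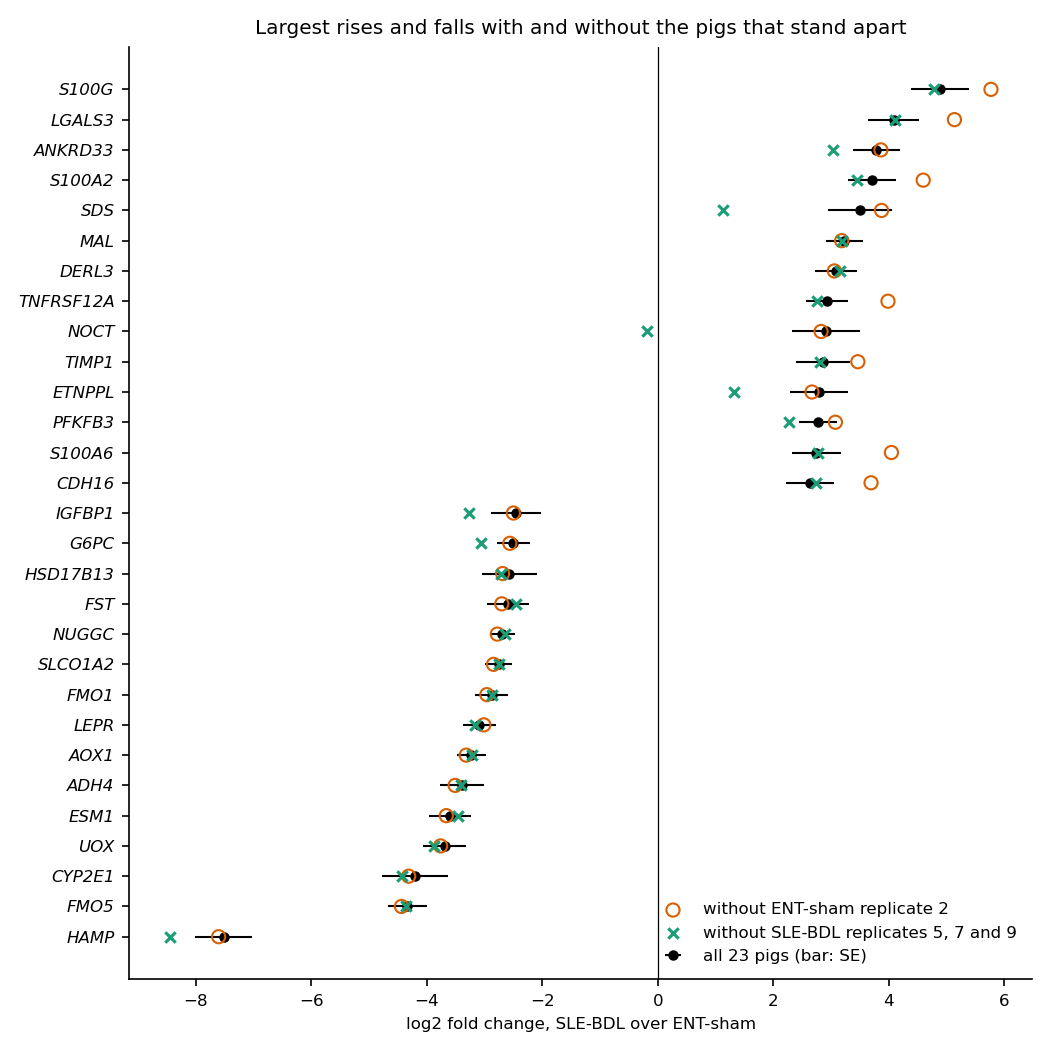
Log2 fold changes of 14 of the largest rises and the 15 largest falls. Black points with SE bars use all 23 pigs, open orange circles leave out ENT-sham replicate 2, and green crosses leave out SLE-BDL replicates 5, 7 and 9. The circles move outward for S100G, LGALS3, S100A2, TNFRSF12A and S100A6, and the cross of NOCT falls to -0.20.

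The largest fall among the named genes was in iron control. HAMP encodes hepcidin, the hormone that limits iron release into blood. HAMP (chromosome 6, 44785863 to 44787303 on Sscrofa11.1) lay between 39.9 and 269 CPM in ENT-sham (median 116) and between 0 and 3.404 CPM in SLE-BDL (median 0.449). Not one SLE-BDL pig came near the ENT-sham range, and replicate 2, at 44.7 CPM, was an ordinary ENT-sham pig for this gene. The log2 fold change was -7.52 ± 0.49 (adjusted p = 2.6e-17), and -8.14 without SLE-BDL replicate 7, the pig with the highest value. ATOH8, a transcription factor that responds to the bone morphogenetic protein (BMP) signal behind hepcidin, fell from a median of 13.3 to 3.26 CPM (-2.003 ± 0.18, adjusted p = 2.7e-13) with no overlap. BMP6, a ligand of that signal, was also lower (-1.18 ± 0.19, adjusted p = 1.4e-06), as was its responsive gene ID1 (-1.09 ± 0.18, adjusted p = 2.2e-06).

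TFRC, the transferrin receptor, rose from a median of 34.0 CPM to 119 (1.81 ± 0.18, adjusted p = 7.0e-12), and 10 of 11 SLE-BDL pigs were above every ENT-sham pig. TF, transferrin itself, was at 11225 to 24733 CPM in ENT-sham and at 26797 to 47236 CPM in SLE-BDL (1.10 ± 0.13, adjusted p = 4.7e-10), so the ranges did not touch. TFR2, the iron-sensing transferrin receptor of hepatocytes, was lower at less than the fold threshold (-0.61 ± 0.088, adjusted p = 1.2e-07). EPO, the hormone that drives red cell production, was called higher and is taken up with the hypoxia genes. Of 30 tested genes of iron control, 3 were higher and 4 lower, and the median of the list was -0.034, against 0.010 for all tested genes. HBB, beta globin, was lower (-1.01 ± 0.32, adjusted p = 0.010), with 457 to 2252 CPM in ENT-sham and 121 to 1259 CPM in SLE-BDL. It was the single called gene of 15 erythroid markers, whose median was 0.36, and its log2 fold change ran from -1.20 to -0.89 over the 23 fits without 1 pig, 9 of which lost the call. The erythroid markers summed to 1195 to 3655 CPM in ENT-sham and 709.9 to 1968 CPM in SLE-BDL.

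Enzymes that oxidize drugs and other foreign compounds had more members called lower than any other of the 35 lists. Of 38 tested phase I enzymes and their receptors, 13 were lower and 3 higher, and the list's median was -0.38 (-0.46 without ENT-sham replicate 2). FMO5 (chromosome 4, 100336769 to 100372744), a flavin monooxygenase, was at 131 to 756 CPM in ENT-sham (median 607) and at 8.89 to 41.3 CPM in SLE-BDL (median 26.7). Its lowest ENT-sham value belonged to replicate 2, and without that pig the ENT-sham minimum was 342 CPM. The log2 fold change was -4.34 ± 0.34 (adjusted p = 4.2e-15), and -4.44 without replicate 2. The related FMO1 (chromosome 9, 63860957 to 63895086) fell from a median of 1382 CPM to 178 (-2.88 ± 0.29, adjusted p = 1.1e-11), again without overlap.

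CYP2E1 (chromosome 14, 141690737 to 141703078), the cytochrome P450 that oxidizes ethanol and paracetamol, had a median of 1214 CPM in ENT-sham and 41.4 CPM in SLE-BDL, where the pigs ranged widely, from 2.15 to 148 CPM (-4.20 ± 0.57, adjusted p = 5.3e-08). AOX1, aldehyde oxidase, lay between 49.6 and 211 CPM in ENT-sham and between 8.13 and 31.9 CPM in SLE-BDL (-3.23 ± 0.25, adjusted p = 4.2e-15). Neither gene had an SLE-BDL pig inside the ENT-sham range. CYP2A19, a pig member of the CYP2A family, was the phase I gene with the largest fold (-6.17 ± 0.75, adjusted p = 2.7e-09) and had a median of 7.498 CPM in ENT-sham against 0.244 in SLE-BDL. ADH4, an alcohol and retinol dehydrogenase, was at 7.11 to 13.1 CPM in all SLE-BDL pigs, while ENT-sham pigs were spread from 6.89 to 281 CPM (-3.40 ± 0.38, adjusted p = 4.0e-10).

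The 3 phase I genes that were higher were CYP3A46 (1.95 ± 0.39), CYP3A22 (1.39 ± 0.27) and CYP2D25 (1.38 ± 0.28), with adjusted p of 6.7e-05, 3.9e-05 and 7.5e-05. CYP3A enzymes hydroxylate bile acids as well as drugs. CYP3A22 had a median of 1418 CPM in ENT-sham and 3548 CPM in SLE-BDL, and ENT-sham replicate 2 was the highest of its group at 2905 CPM. CYP2D25 was no longer called without SLE-BDL replicates 5, 7 and 9 (0.90). The other members called lower, named after their values were seen as are all further list members beyond the 3 with the largest change in each direction, were CYP26A1, which clears retinoic acid (-2.41 ± 0.62), CYP1A2 (-2.35 ± 0.41), CYP2B22 (-2.25 ± 0.53), CYP2J34 (-1.77 ± 0.60), ADH1C (-1.72 ± 0.24), CYP2C49 (-1.68 ± 0.42) and NR1I3. NR1I3 is CAR, the receptor that induces many of these enzymes, and had medians of 28.1 and 8.19 CPM (-1.68 ± 0.24, adjusted p = 8.7e-08). Members of the cytochrome families are near copies of each other and can share reads, so values of single CYP2 and CYP3A genes are uncertain. Among 21 tested conjugating enzymes of phase II, SULT1A3 was higher (1.72 ± 0.23, adjusted p = 3.0e-08) with no overlap and NNMT, nicotinamide methyltransferase, was higher as well (1.31 ± 0.30, adjusted p = 4.1e-04), but not called without SLE-BDL replicates 5, 7 and 9 (0.78), its 3 highest pigs. SULT2A1, the sulfotransferase of bile acids and steroids, was lower (-1.07 ± 0.31, adjusted p = 0.0048), though SLE-BDL replicate 7, at 242 CPM, lay above the ENT-sham median of 209.8 CPM. Its call was lost without SLE-BDL replicate 2 or 6, with a log2 fold change no nearer to 0 than -0.98.

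CYP7A1, the rate-limiting enzyme of bile acid synthesis, was not called (-0.35 ± 0.52, adjusted p = 0.64). It ranged from 0.469 to 49.1 CPM in ENT-sham (median 5.56) and from 2.30 to 33.6 CPM in SLE-BDL (median 4.496), and the ENT-sham maximum was replicate 2. Without it the estimate was 0.12 (adjusted p = 0.88). The other groups lay far apart for this gene, with medians of 0.497 CPM in SLE-sham and 65.8 CPM in ENT-BDL. PN alone gave -3.86 ± 0.68 (adjusted p = 1.4e-05) and ligation alone 2.52 ± 0.54 (adjusted p = 5.1e-04), both against the same ENT-sham pigs, replicate 2 included. Of 14 tested synthesis and conjugation genes, SLC27A5, which activates bile acids for conjugation, was the 1 called gene (-1.80 ± 0.26, adjusted p = 1.5e-07), and the median was -0.39.

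Of 19 transporters, 4 were higher and 3 lower. SLC51A, 1 chain of the exporter OST that carries bile acids out of the hepatocyte into blood, rose from a median of 0.745 to 5.59 CPM (3.59 ± 0.58, adjusted p = 1.5e-06). Its spread in SLE-BDL was wide, from 2.86 to 118 CPM, and leaving out SLE-BDL replicate 7 gave 2.53 and leaving out ENT-sham replicate 2 gave 4.44. SLC51B, the partner chain, rose from 9.38 to 33.7 CPM (1.60 ± 0.31, adjusted p = 3.8e-05), and ABCB4, which moves phospholipid into bile, from 51.96 to 135 CPM (1.73 ± 0.27, adjusted p = 6.1e-07). The basolateral pump ABCC4 was the other higher member (1.47 ± 0.17, adjusted p = 7.9e-10). On the uptake side, SLCO1A2 (chromosome 5, 52020303 to 52133132), which imports organic anions and bile acids, was at 13.9 to 71.9 CPM in ENT-sham and at 2.25 to 9.92 CPM in SLE-BDL, without overlap (-2.76 ± 0.24, adjusted p = 9.7e-14). The anion carrier SLC22A7 (-1.002 ± 0.16) was lower at a fold just above 2, and lost its call in 12 of the 23 fits without 1 pig, where its value ran to -0.95. With the identifier number as a block SLC22A7 was not called either. Of 10 tested bile acid sensors, VDR, the vitamin D receptor, was called (2.496 ± 0.50, adjusted p = 6.2e-05; 3.33 without replicate 2) at a low level, with a highest SLE-BDL value of 3.24 CPM. FGF19, the bile acid feedback hormone of the gut, did not pass the filter and reached at most 0.0499 CPM in these pigs.

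Markers of cholangiocytes and of the ductular reaction that were called were higher in SLE-BDL. Of 29 tested members, 10 were higher and 0 lower, with a median of 0.73, and without ENT-sham replicate 2 these became 15 higher, 1 lower and a median of 1.04. LGALS3 (chromosome 1, 184478639 to 184496155), galectin-3, a lectin of biliary cells and macrophages, was at 0.312 to 1.58 CPM in 11 ENT-sham pigs, at 9.31 CPM in replicate 2, and at 6.09 to 41.7 CPM in SLE-BDL. The log2 fold change was 4.08 ± 0.45 (adjusted p = 1.9e-10), or 5.14 without replicate 2. SPP1, osteopontin, rose from a median of 14.05 to 107 CPM (2.56 ± 0.28, adjusted p = 1.8e-10), and ELF3, an epithelial transcription factor, from 2.97 to 37.1 CPM (2.44 ± 0.35, adjusted p = 1.5e-07; 3.17 without replicate 2). LGALS3 and SPP1 were also high in unligated SLE-sham pigs, at 3.37 to 59.9 and 57.7 to 197 CPM. The median of the whole list was 0.032 for diet alone and 0.72 for ligation alone. The duct keratins KRT7 and KRT19 had log2 fold changes of 1.88 ± 0.33 and 1.79 ± 0.25 (adjusted p = 9.2e-06 and 7.6e-08), and KRT7 was at 2.77 without replicate 2. The tight junction claudins CLDN6 (2.26 ± 0.44; 4.27 without replicate 2) and CLDN10 (1.70 ± 0.25), the integrin ITGA2 (1.34 ± 0.17) and the keratin KRT18 (1.10 ± 0.14) were called as well.

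MMP7, a matrix protease of injured bile ducts, shows what 1 library did to this comparison. The other 11 ENT-sham pigs were at 2.496 to 9.92 CPM and SLE-BDL pigs at 22.8 to 98.97 CPM (median 64.98), with no overlap, while ENT-sham replicate 2 was at 226 CPM, above every SLE-BDL pig. The log2 fold change was 1.25 ± 0.50 (adjusted p = 0.045) with all pigs and 3.49 (adjusted p = 4.2e-15) without replicate 2, and the call with all pigs was lost when any of 17 other pigs was left out, with a lowest value of 1.12. SOX9, the transcription factor of biliary progenitors, was not called either way, at 0.37 ± 0.28 (adjusted p = 0.31) with all pigs and 0.77 (adjusted p = 0.0086) without replicate 2, which held 37.6 CPM against 3.95 to 16.1 CPM in the other 11. Summed over the list, replicate 2 had 1888 CPM, the other ENT-sham pigs 930.6 to 1358, and SLE-BDL pigs 1416 to 2140.1.

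Genes of the extracellular matrix and its turnover were mostly higher. Of 50 tested members, 11 were higher and 1 lower, with a median of 0.61, and at any fold 32 were higher and 3 lower. TIMP1, an inhibitor of matrix metalloproteinases, was at 2.44 to 7.36 CPM in 11 ENT-sham pigs and at 8.16 to 147 CPM in SLE-BDL (2.86 ± 0.46, adjusted p = 1.8e-06), with replicate 2 at 30.5 CPM and a log2 fold change of 3.46 without it. MMP9, a gelatinase, rose from 0.760 to 9.02 CPM (3.12 ± 0.50, adjusted p = 1.2e-06; 3.74 without replicate 2), although 2 SLE-BDL pigs, at 0.267 and 0.670 CPM, were below the ENT-sham median. LTBP2, a microfibril protein, was the lower member (-1.13 ± 0.26, adjusted p = 3.5e-04). Those called beside them included VCAN, the proteoglycan versican (1.90 ± 0.30), THBS1, an activator of latent TGF-beta (1.57 ± 0.25), CYR61 (1.34 ± 0.25), the crosslinking enzymes LOXL4 (1.16 ± 0.27) and LOX (1.05 ± 0.22), COL6A3 (1.11 ± 0.21) and COL1A1. COL1A1, the main fibrillar collagen, had 1.27 ± 0.32 (adjusted p = 0.0014) with medians of 319 and 636 CPM.

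TGFB1, the central fibrogenic cytokine, did not pass the test (0.17 ± 0.12, adjusted p = 0.30), with 25.3 to 45.1 CPM in ENT-sham and 33.3 to 59.3 CPM in SLE-BDL. Of 21 tested ligands and receptors of its family, 1 was called, INHBE, an activin chain made in hepatocytes (1.03 ± 0.26, adjusted p = 0.0014), but not without ENT-sham replicate 2 (0.93), nor without ENT-sham replicate 1 or 3 or SLE-BDL replicate 6 (down to 0.80). INHBE also lost its call with the identifier number as a block. None of 17 stellate cell and myofibroblast markers was called by edgeR with all pigs, and their median was -0.051. Of these, VIM, vimentin, had the smallest adjusted p (0.90 ± 0.15, adjusted p = 2.4e-06) and passed the fold without replicate 2 (1.03). At any fold, 5 of the 17 were higher and 4 lower.

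Of 36 tested cytokines, chemokines and adhesion molecules, 8 were called higher and 2 lower, with 13 higher and 7 lower at any fold and a median of 0.10. Without SLE-BDL replicates 5, 7 and 9 these were 5 and 1, and without ENT-sham replicate 2 they were 10 and 3. OSM, oncostatin M, a cytokine of myeloid cells, was higher at low levels (3.003 ± 0.55, adjusted p = 1.3e-05), with medians of 0.0769 and 0.534 CPM. SLE-BDL replicate 9 held 5.91 CPM and the other 10 pigs 0.259 to 0.895 CPM. Without replicate 9 OSM fell below the count filter, and in the fit with no filter and without that pig it was 2.04 (edgeR adjusted p = 0.0015). CXCL14, a chemokine of epithelia, was at 1.96 to 10.8 CPM in ENT-sham and at 11.9 to 68.6 CPM in SLE-BDL, without overlap (2.60 ± 0.32, adjusted p = 5.3e-09), and its estimate hardly moved without replicate 2 (2.66). CCL20, which draws lymphocytes and dendritic cells to epithelia, was higher too (2.08 ± 0.54, adjusted p = 0.0015; 2.90 without replicate 2). The neutrophil chemokine CXCL8 behaved as MMP7 did. It was at 0.245 to 1.38 CPM in 11 ENT-sham pigs, at 45.0 CPM in replicate 2, and at 3.901 to 22.97 CPM in SLE-BDL, which gave 1.36 ± 0.51 (adjusted p = 0.030) with all pigs and 3.82 (adjusted p = 1.1e-14) without replicate 2. The call with all pigs was lost in 12 of the 23 fits without 1 pig, with a lowest value of 1.22.

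CXCL2, a further neutrophil chemokine (1.53 ± 0.43; 2.26 without replicate 2), LIF (1.26 ± 0.41; 2.29 without replicate 2), the chemokine receptor CXCR4 (1.14 ± 0.20) and IL1A (1.12 ± 0.46) completed those called higher. SELP, the adhesion molecule P-selectin of platelets and endothelium, was lower (-1.92 ± 0.23, adjusted p = 1.0e-09). CCL8, a monocyte chemokine, was lower as well (-1.06 ± 0.39, adjusted p = 0.029), but lost its call without SLE-BDL replicate 5 or 9 or ENT-sham replicate 8 or 9, with values up to -0.88. In the NF-kappaB pathway 1 of 28 genes was called, the kinase IKBKE (1.62 ± 0.19, adjusted p = 7.6e-10), with 13 higher and 0 lower at any fold. None of 32 acute-phase proteins was called by edgeR with all pigs (7 passed at any fold, 2 higher and 5 lower). IL6R, the receptor through which interleukin-6 induces many of them, had the smallest adjusted p of that list and lay just under the fold threshold, at 93.6 to 172 CPM in ENT-sham and 45.7 to 81.6 CPM in SLE-BDL (-0.995 ± 0.087, adjusted p = 1.2e-13). DESeq2 and the fit without replicate 2 put it past that threshold, at -1.01 and -1.04.

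The levels of cell markers moved beside these genes, and their part in the results above was not tested. Neutrophil and monocyte markers were called in 8 of 13, all higher, with a median of 1.52, also without replicate 2 (8 higher, median 1.55). Their summed level was 13.0 to 33.3 CPM in ENT-sham (median 21.3) and 23.4 to 96.1 CPM in SLE-BDL (median 40.8), so the groups overlapped. MMP8, a neutrophil collagenase (2.08 ± 0.58), FCN1, a lectin of monocytes (2.03 ± 0.32), and S100A9, a chain of calprotectin (1.92 ± 0.46), had the largest folds, and adjusted p of 0.0036, 7.0e-07 and 6.1e-04. S100A8 (1.83 ± 0.47), the granule proteins LTF (1.61 ± 0.50) and MPO (1.60 ± 0.38), S100A12 (1.52 ± 0.47) and the receptor CSF3R (1.43 ± 0.29) were the other 5. Among 20 macrophage markers 4 were called higher and 1 lower, but at any fold 5 were higher and 11 lower, with a median of -0.43. Those called higher were TREM2 (3.12 ± 0.53; 4.97 without replicate 2), GPNMB (2.10 ± 0.24), LYZ (1.90 ± 0.48; 2.68 without replicate 2) and MARCO (1.66 ± 0.24). TREM2 was scarce, with at most 1.06 CPM in ENT-sham (replicate 2) and 2.81 CPM in SLE-BDL. CLEC4F, a lectin of Kupffer cells, was lower (-1.76 ± 0.33, adjusted p = 2.8e-05). Their summed level ran from 1517 to 3031 CPM in ENT-sham and from 1513 to 2126 CPM in SLE-BDL.

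Of 17 T, B and NK cell markers 1 was called, CD79B of B cells (-1.46 ± 0.40, adjusted p = 0.0030), and the summed level was 39.8 to 71.4 CPM in ENT-sham and 27.8 to 55.5 CPM in SLE-BDL. Of 17 endothelial markers 1 was called, CLEC4G of sinusoids (-1.07 ± 0.18, adjusted p = 5.4e-06), with a call that was lost without SLE-BDL replicate 6 or 7 (up to -0.97). The endothelial sum was 1210.2 to 2414 CPM against 681.9 to 1841 CPM. Hepatocyte markers summed to 126507 to 238037 CPM in ENT-sham and 137554 to 212388 CPM in SLE-BDL, so they were abundant in every library, and PRSS2, a pancreas marker, was at 0 in all 23 pigs. In the hepatocyte list 4 of 41 genes were called higher and 1 lower, but 24 were lower at any fold and the median was -0.33. AFP, the fetal counterpart of albumin, rose from 2315 to 7189.6 CPM (1.45 ± 0.22, adjusted p = 5.6e-07), while ALB, albumin, had medians of 70738 and 42469.9 CPM (-0.71 ± 0.15, adjusted p = 1.0e-04). APOA4, an intestinal and hepatic apolipoprotein, was higher (1.77 ± 0.42, adjusted p = 7.3e-04) but not called without SLE-BDL replicates 5, 7 and 9 (0.80), and APOA5, which promotes triglyceride clearance, was lower (-1.55 ± 0.31, adjusted p = 8.0e-05). The other 2 called higher were TF, given above, and TFPI2, a protease inhibitor (1.05 ± 0.22).

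**Figure D3:**
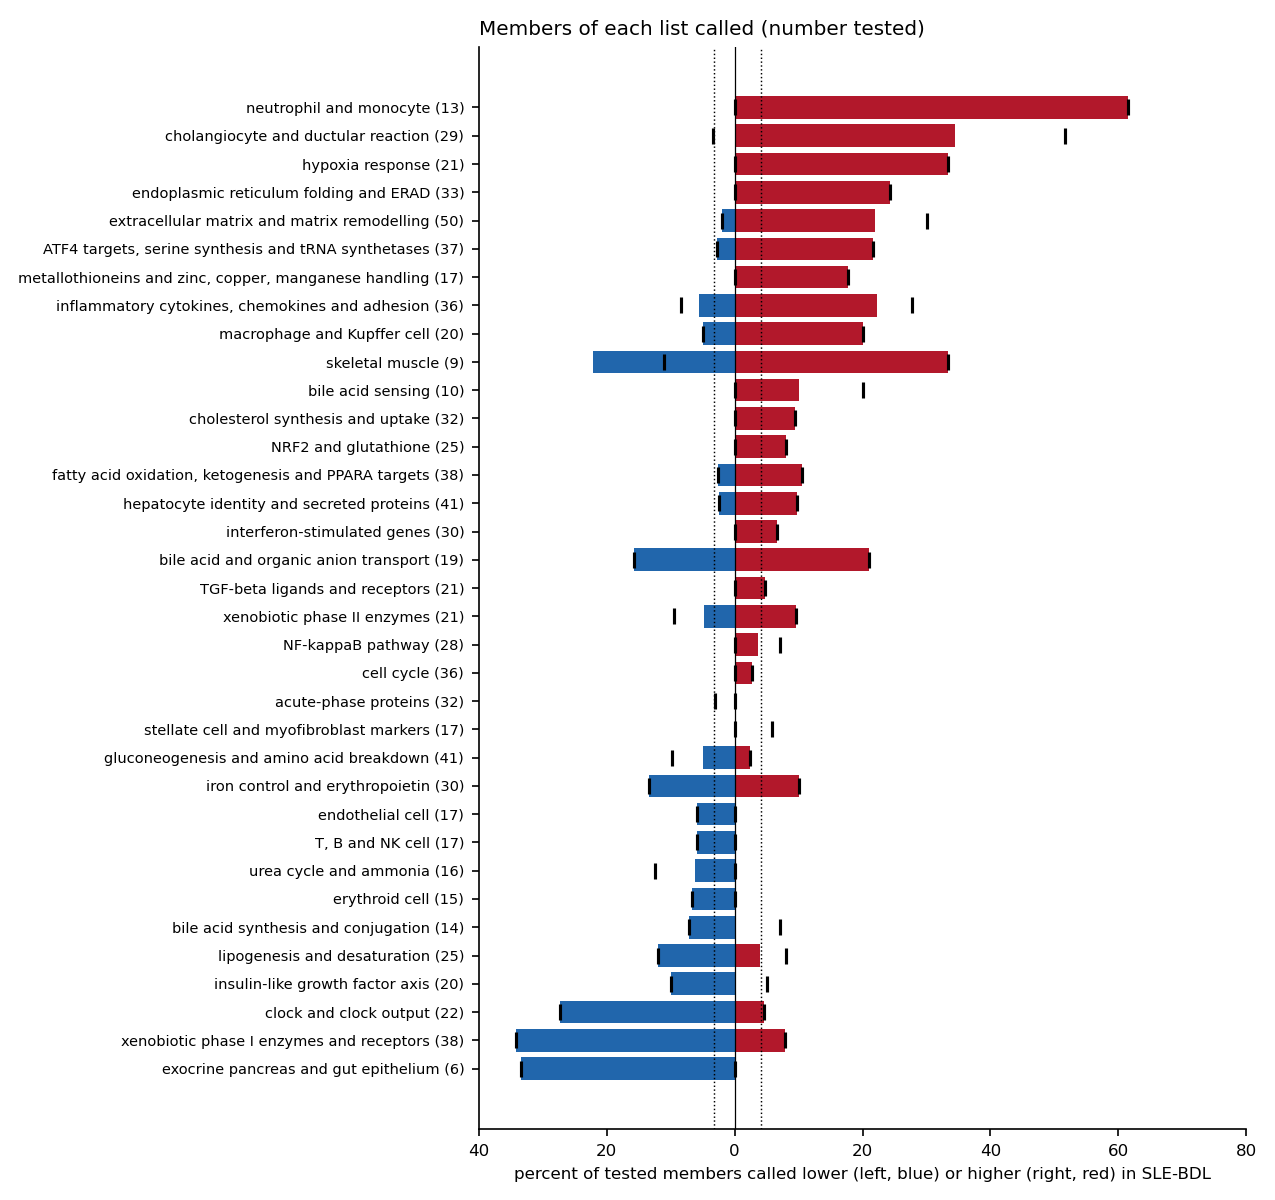
For each of 35 gene lists, bars show the percent of tested members (number in parentheses) that were called higher in SLE-BDL (red, right) or lower (blue, left), black ticks the same counts without ENT-sham replicate 2, and dotted lines the 4.08% and 3.27% of all tested genes. Neutrophil and monocyte markers reach farthest to the right (8 of 13 members), and phase I enzymes have the most members called lower (13 of 38).

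Of 33 tested genes of protein folding and degradation in the endoplasmic reticulum, 8 were called higher and 0 lower. At any fold 23 were higher and 1 lower (OS9, -0.40 ± 0.082, adjusted p = 7.6e-05), with a median of 0.51 that stayed at 0.50 without ENT-sham replicate 2. DERL3 (chromosome 14, 49871077 to 49875022), which helps pull misfolded proteins out for degradation, was at 2.38 to 11.3 CPM in ENT-sham (median 3.33) and at 9.02 to 83.7 CPM in SLE-BDL (median 36.6), a log2 fold change of 3.08 ± 0.36 (adjusted p = 1.1e-09). The chaperone partners CRELD2 (1.91 ± 0.26, adjusted p = 4.4e-08) and SDF2L1 (1.87 ± 0.27, adjusted p = 1.9e-07) followed. HSPA5, the master chaperone BiP, had medians of 763 and 1839 CPM (1.34 ± 0.18, adjusted p = 2.6e-08), and HYOU1 (1.31 ± 0.17), DNAJB11 (1.24 ± 0.18), MANF (1.10 ± 0.17) and DNAJB9 (1.02 ± 0.16) were called too. ENT-sham replicate 2 was the lowest ENT-sham pig for CRELD2 and SDF2L1, at 26.1 and 18.8 CPM, while for LGALS3, MMP7 and SOX9 it was the highest.

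In the joint list of targets of ATF4, the transcription factor of the integrated stress response, serine synthesis enzymes and tRNA synthetases, 8 of 37 genes were higher and 1 lower, with 28 higher and 2 lower at any fold and a median of 0.45. GDF15, a stress hormone that acts on appetite, rose from a median of 0.539 to 3.29 CPM (3.53 ± 0.45, adjusted p = 6.2e-09), of which SLE-BDL replicate 9 held 58.0 CPM, and without that pig the value was 2.07. CHAC1, which degrades glutathione (3.12 ± 0.52, adjusted p = 2.3e-06), and ATF3, a stress-induced repressor (2.58 ± 0.33, adjusted p = 6.2e-09), were higher too. So were DDIT4, an inhibitor of mTOR signalling (2.19 ± 0.21), the hepatic hormone FGF21 (1.70 ± 0.26), DDIT3, the factor CHOP (1.66 ± 0.19), TRIB3 (1.504 ± 0.27) and STC2 (1.15 ± 0.36). ATF5 was the lower member, from 791 to 339 CPM (-1.05 ± 0.15, adjusted p = 8.3e-08), at a fold just above 2 that became -0.98 and lost its call without SLE-BDL replicates 5, 7 and 9. CDKN1A, the cell cycle inhibitor p21, was the 1 called gene of 36 cell cycle genes, at 14.3 to 40.4 CPM against 40.9 to 192 CPM without overlap (1.49 ± 0.18, adjusted p = 1.0e-09).

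Of 5 metallothioneins, which bind zinc and copper, 3 were called higher. MT1D (chromosome 6, 18650985 to 18652317) was at 2312 to 4784 CPM in ENT-sham and at 7713 to 11839.5 CPM in SLE-BDL, 2 separate ranges (1.38 ± 0.12, adjusted p = 6.6e-14). MT3 (2.26 ± 0.29, adjusted p = 8.8e-09) and the scarcer MT4 (2.11 ± 0.46, adjusted p = 2.1e-04) were the other called members of 17 genes of metal handling. MT-2B had 0.63 ± 0.098 (adjusted p = 6.0e-07), under the fold threshold, and MT1A 0.49 ± 0.20 (adjusted p = 0.055). MT1D, MT3 and MT4 lie within a short stretch of chromosome 6 and are much alike, so reads may be split between them. Of 25 tested genes of the NRF2 and glutathione system, GPX3, a secreted glutathione peroxidase (2.15 ± 0.43, adjusted p = 7.1e-05), and SRXN1, sulfiredoxin (1.52 ± 0.25, adjusted p = 1.9e-06), were higher, and none was called lower by edgeR (5 at any fold).

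Of 22 tested clock genes, 6 were called lower and 1 higher, with and without ENT-sham replicate 2. At any fold 10 were lower and 6 higher, and those higher included CRY1, a repressor of the core loop (0.65 ± 0.12, adjusted p = 1.0e-05), and BHLHE40 (0.79 ± 0.22, adjusted p = 0.0042). The transcription factors DBP and HLF, which carry the circadian signal to metabolic genes, did not overlap between groups. DBP was at 5.803 to 24.4 CPM in ENT-sham and 1.07 to 5.23 CPM in SLE-BDL (-2.12 ± 0.22, adjusted p = 1.5e-11), and HLF at 43.1 to 107 CPM against 13.7 to 39.9 CPM (-1.71 ± 0.14, adjusted p = 9.7e-15). NR1D1, the repressor REV-ERB alpha, was lower (-1.44 ± 0.25, adjusted p = 6.2e-06) with overlap. NR1D2 (-1.25 ± 0.17) and PER3 (-1.11 ± 0.12) were lower too. ARNTL2, a partner of CLOCK, was higher (1.45 ± 0.44, adjusted p = 0.0075). The hour at which each liver was taken is not given in the sources used here.

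In lipid metabolism, 3 of 32 tested genes of cholesterol synthesis and uptake were higher and 0 lower. HMGCS1, which makes HMG-CoA, was at 105 to 549 CPM in ENT-sham and at 591 to 1615 CPM in SLE-BDL (1.94 ± 0.20, adjusted p = 2.2e-11). The ENT-sham maximum was replicate 2 and the ranges still did not touch. NPC1L1, which takes up sterols, was also higher (2.33 ± 0.30, adjusted p = 1.5e-08), and at any fold 16 members were higher and 3 lower. Among 25 tested genes of lipogenesis, TKFC (-1.67 ± 0.15), THRSP (-1.31 ± 0.28) and DGAT2, which makes triglyceride (-1.13 ± 0.20), were lower, with adjusted p of 2.7e-13, 1.8e-04 and 6.9e-06, and PPARG was higher (1.63 ± 0.31, adjusted p = 3.3e-05) at under 2 CPM in every one of the 23 pigs.

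MFSD2A, a carrier of lysophospholipids with long polyunsaturated chains, had the largest rise of any named gene, 6.85 ± 0.83 (adjusted p = 2.2e-09), from a median of 0.0625 to 3.09 CPM. SLE-BDL replicates 7, 9, 6 and 5 held 171.6, 122.1, 20.7 and 16.2 CPM, and the other 7 pigs 0.289 to 3.79 CPM, so that the value was 4.12 (adjusted p = 5.1e-07) without replicates 5, 7 and 9. It was 6.02 without replicate 7 alone and 8.02 without ENT-sham replicate 2. CD36, a fatty acid importer (2.06 ± 0.27, adjusted p = 9.4e-09), and PLIN2, the coat protein of lipid droplets, were higher as well. PLIN2 was at 23.2 to 43.4 CPM in ENT-sham and 47.3 to 157 CPM in SLE-BDL (1.18 ± 0.17, adjusted p = 8.7e-08). ANGPTL4, an inhibitor of lipoprotein lipase, was also higher (1.12 ± 0.29, adjusted p = 0.0014). In the list of 38 genes of fat oxidation and PPARA targets these made 4 higher against 1 lower, while at any fold 8 were higher and 13 lower, with a median of -0.084.

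Of 41 tested genes of gluconeogenesis and amino acid breakdown, 2 were called lower, G6PC and PCK1, and 1 higher, SDS, which is described with SLE-BDL replicates 5, 7 and 9. Such counts are near the shares of all tested genes, 3.27% called lower and 4.08% called higher. G6PC (chromosome 12, 19965885 to 19975783), the glucose-6-phosphatase that releases glucose from the liver, was at 424 to 1324 CPM in ENT-sham and 58.7 to 383 CPM in SLE-BDL (-2.501 ± 0.28, adjusted p = 2.8e-10), with no overlap. PCK1, the gatekeeper of gluconeogenesis, was lower too (-1.27 ± 0.32, adjusted p = 0.0015). At any fold 23 members were lower and 3 higher, and the median was -0.31. Of 20 tested genes of the insulin-like growth factor axis, 2 were called lower and 0 higher, with 11 lower and 1 higher at any fold. IGFBP1, an insulin-repressed binder of insulin-like growth factors, had medians of 606 and 57.2 CPM (-2.46 ± 0.44, adjusted p = 9.5e-06). SOCS2, which growth hormone induces, had medians of 56.5 and 9.85 CPM (-2.18 ± 0.24, adjusted p = 1.8e-10). For both, 1 or 2 SLE-BDL pigs reached into the ENT-sham range. In the urea and ammonia list 1 of 16 genes was called, RHBG, an ammonia channel (-1.72 ± 0.34, adjusted p = 5.6e-05).

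The hypoxia list held 7 higher and 0 lower genes of 21, and 5 higher without SLE-BDL replicates 5, 7 and 9. FGF23, a phosphate-wasting hormone that iron shortage and hypoxia induce in bone, was the member with the largest fold (4.08 ± 0.52, adjusted p = 9.2e-09), from a median of 0.6803 to 5.26 CPM, and 3.42 without SLE-BDL replicate 9. HK2, a hexokinase that adult liver normally lacks, rose from 0.08604 to 2.04 CPM (3.62 ± 0.48, adjusted p = 1.6e-08; 4.42 without ENT-sham replicate 2), and 10 of 11 SLE-BDL pigs were above every ENT-sham pig. EPO went from a median of 0.324 to 1.14 CPM (3.15 ± 0.52, adjusted p = 2.5e-06). SLE-BDL replicates 5, 9 and 4 held 22.5, 8.29 and 6.78 CPM, and the other 8 pigs 0.470 to 2.71 CPM, against at most 1.44 CPM in ENT-sham. Without replicate 5 the EPO value was 2.36. EGLN3, an oxygen sensor (2.06 ± 0.31), the glucose carriers SLC2A3 (1.56 ± 0.28) and SLC2A1 (1.499 ± 0.17) and NDRG1 (1.02 ± 0.17) made up the rest. PFKFB3, which sets the pace of glycolysis, rose from 7.802 to 68.8 CPM (2.77 ± 0.32, adjusted p = 8.1e-10).

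Several of the largest rises rested on SLE-BDL replicates 5, 7 and 9. NOCT, nocturnin, a rhythmic phosphatase of NADP(H), was at 50.8, 13.3 and 252.6 CPM in these pigs and at 2.79 to 5.52 CPM in the other 8, inside the ENT-sham range of 1.82 to 11.5 CPM. Its log2 fold change was 2.91 ± 0.59 (adjusted p = 7.9e-05) with all pigs, 1.15 without replicate 9, 1.08 by DESeq2, and -0.20 (adjusted p = 0.73) without all 3. SDS, serine dehydratase, was at 38.1, 80.8 and 152.1 CPM in the same pigs and at 3.33 to 9.77 CPM in the others, against 0.927 to 8.501 CPM in ENT-sham (3.499 ± 0.56, adjusted p = 1.3e-06; 2.68 without replicate 9, and 1.13, adjusted p = 0.027, without all 3). ETNPPL, which degrades phosphoethanolamine, reached 286.4 and 211.5 CPM in replicates 5 and 9 (2.79 ± 0.50, adjusted p = 1.2e-05; 2.18 without replicate 5 and 1.32 without all 3). OASL, 1 of 2 called genes of 30 interferon-stimulated genes (1.85 ± 0.63, adjusted p = 0.016), rested on SLE-BDL replicate 6 at 27.8 CPM, and was 0.33 without it. Its call was also lost with the replicate number or the identifier number as a block. The other, ISG20, was higher (2.16 ± 0.40, adjusted p = 2.0e-05).

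**Figure D4:**
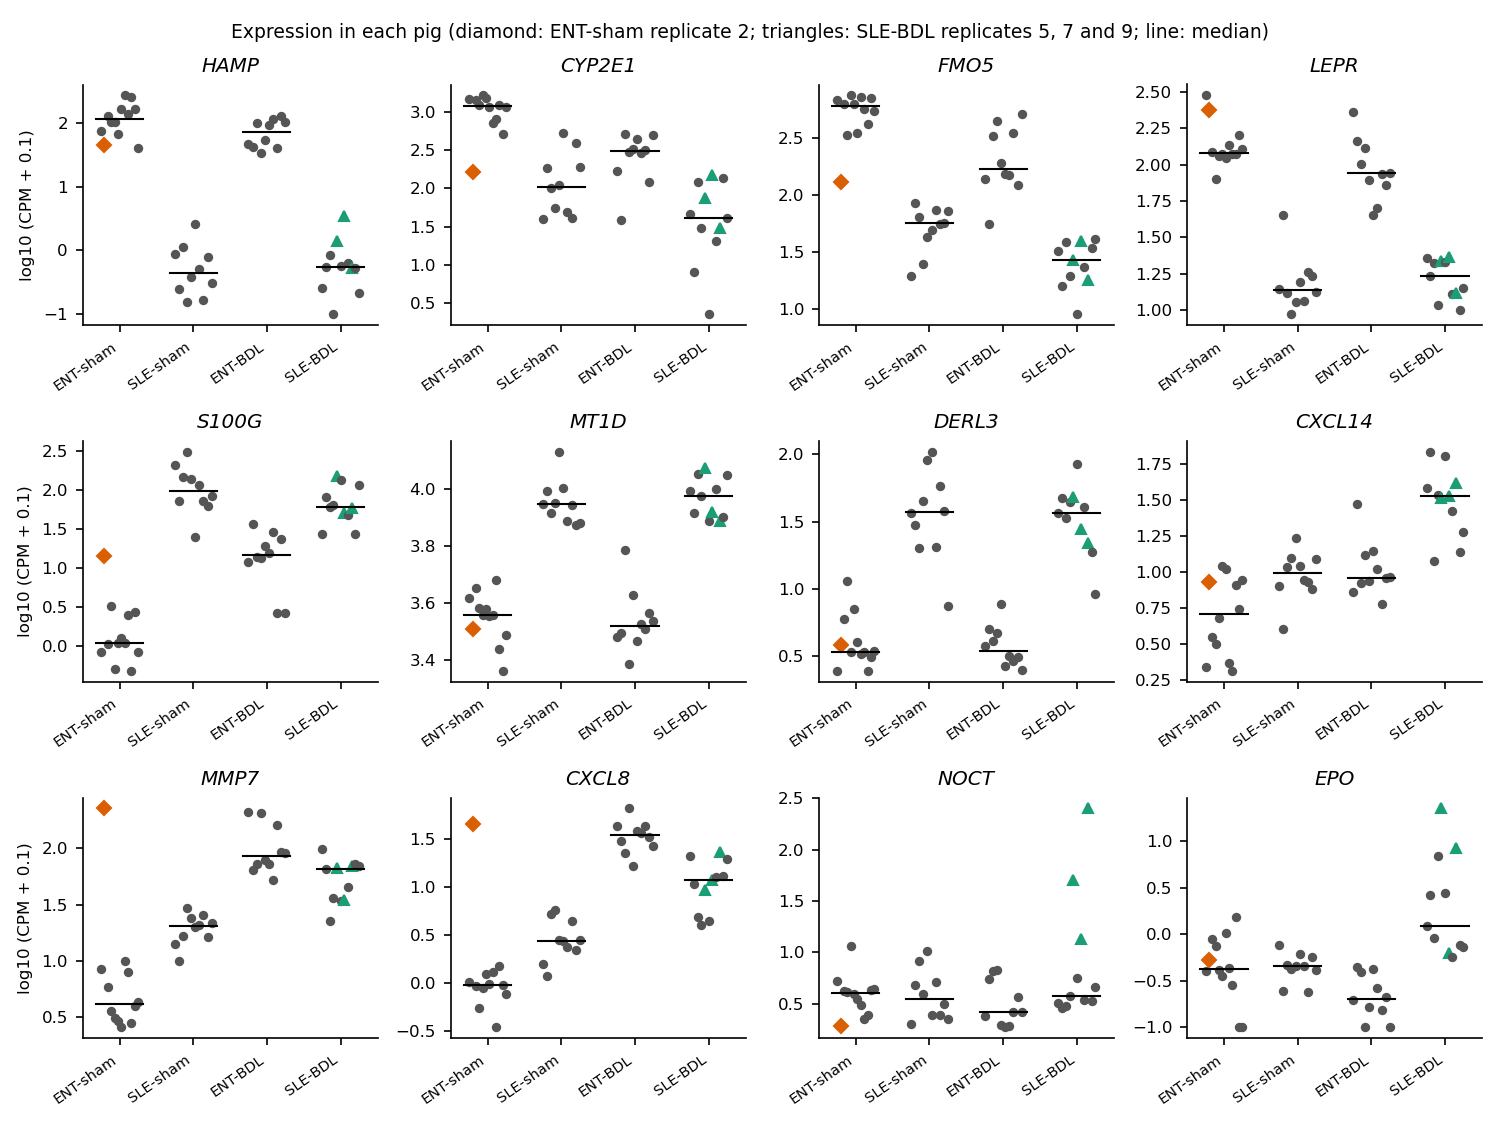
Expression of 12 genes in each pig as log10 of CPM plus 0.1, for ENT-sham (12 pigs), SLE-sham (10), ENT-BDL (10) and SLE-BDL (11), with a line at each group's median. The orange diamond is ENT-sham replicate 2, which lies at the top of its group for MMP7 (226 CPM) and CXCL8 (45.0 CPM) and within its group for HAMP and MT1D. Green triangles are SLE-BDL replicates 5, 7 and 9, the 3 highest for NOCT.

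The remaining large differences belonged to genes of other roles. S100G (chromosome X, 13107611 to 13114213), calbindin-D9k, a calcium binder that vitamin D induces, was at 0.387 to 3.15 CPM in 11 ENT-sham pigs, at 13.96 CPM in replicate 2, and at 26.8 to 150.0 CPM in SLE-BDL (4.89 ± 0.50, adjusted p = 2.3e-11; 5.77 without replicate 2). Its relatives S100A2 (3.70 ± 0.42, adjusted p = 3.6e-10; 4.59 without replicate 2) and S100A6 (2.74 ± 0.42, adjusted p = 7.4e-07; 4.04 without replicate 2) were also higher. MAL, a membrane protein of apical sorting, was at 0.6101 to 10.4 CPM in ENT-sham and at 27.4 to 97.3 CPM in SLE-BDL (3.23 ± 0.32, adjusted p = 9.7e-12). ANKRD33, an ankyrin repeat protein, was at 0.6101 to 3.43 CPM in ENT-sham and at 6.64 to 114 CPM in SLE-BDL (3.78 ± 0.41, adjusted p = 1.4e-10). These last 2 genes had no overlap with all pigs. TNFRSF12A, the receptor of TWEAK, and CDH16, a cadherin of kidney tubules, had no overlap once replicate 2 was left out. TNFRSF12A had 2.93 ± 0.36 with all pigs and 3.98 without it, and CDH16 2.63 ± 0.42 and 3.69.

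Among the falls, LEPR (chromosome 6, 146802297 to 146896152), the leptin receptor, was at 78.9 to 299 CPM in ENT-sham and 9.92 to 23.03 CPM in SLE-BDL (-3.09 ± 0.29, adjusted p = 2.4e-12). UOX, urate oxidase, was at 14.4 to 54.9 CPM against 0.848 to 4.54 CPM (-3.69 ± 0.37, adjusted p = 2.0e-11). NUGGC, a nuclear GTPase, was at 53.4 to 247 CPM against 10.4 to 34.6 CPM (-2.69 ± 0.22, adjusted p = 1.8e-14). ESM1, endocan, an endothelial proteoglycan, was at 5.84 to 41.5 CPM against 0.716 to 2.62 CPM (-3.60 ± 0.36, adjusted p = 1.3e-11). The groups were wholly separate for these 4 genes. FST, follistatin, which binds activin, was lower (-2.60 ± 0.37, adjusted p = 1.1e-07) except in SLE-BDL replicate 2 at 15.3 CPM, without which the value was -3.35. HSD17B13, a retinol dehydrogenase of lipid droplets, was lower (-2.57 ± 0.48, adjusted p = 2.0e-05) and did not overlap without ENT-sham replicate 2.

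Some called genes are markers of other tissues. Of 9 tested skeletal muscle markers, CKM, muscle creatine kinase (2.68 ± 0.43, adjusted p = 1.3e-06), XIRP1 (2.58 ± 0.68, adjusted p = 0.0020; 5.69 without replicate 2) and TNNI2 (1.65 ± 0.34, adjusted p = 1.2e-04) were higher, and NEB (-2.43 ± 0.36, adjusted p = 2.9e-07) and CASQ1 (-1.03 ± 0.40, adjusted p = 0.040) lower. CASQ1 lost its call in 11 of the 23 fits without 1 pig, where its value ran from -1.23 to -0.90. The defining muscle gene ACTA1 was at 0 to 0.0640 CPM in these pigs and TNNT3 at 0 to 0.0627 CPM. In the list of pancreas and gut, CPA1 (-1.24 ± 0.34, adjusted p = 0.0029) and LGR5, a receptor of stem cells that pericentral hepatocytes also carry (-1.76 ± 0.24, adjusted p = 5.2e-08), were lower among 6 tested genes. ABCC8, the sulfonylurea receptor, was not called but differed between pigs by orders of magnitude. It was at 153.7, 31.2 and 27.9 CPM in ENT-sham replicates 2, 1 and 3 and at 0 to 0.125 CPM in the other 9, and at 0.0609 to 56.6 CPM in SLE-BDL (-0.29 ± 0.98, adjusted p = 0.85). The sign turned without ENT-sham replicate 2 (1.42, adjusted p = 0.26), and with the identifier number as a block ABCC8 was called higher (2.66, adjusted p = 0.0075).

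Values of diet alone (SLE-sham) and of ligation alone (ENT-BDL) place these differences. All 3 comparisons use the same ENT-sham pigs, with replicate 2 unless stated. Their values are therefore set side by side without a test of likeness. Diet alone had 849 called genes of 16210 (5.24%) and ligation alone 549 (3.39%), and without ENT-sham replicate 2 these were 926 (5.72%) and 801 (4.95%) of 16179. The library labelled ENT-BDL replicate 1, which nearly matched ENT-sham replicate 2, is in the ENT-BDL values. From SLE-sham to SLE-BDL, that is ligation on PN, 241 were called (1.49%), and from ENT-BDL to SLE-BDL, that is PN on ligation, 508 (3.13%). Between MLE-BDL, whose PN held a mixed lipid emulsion, and SLE-BDL it was 60 genes (0.37%). MFSD2A was 1 of these (-4.14, adjusted p = 0.0047), as was EPO (-2.84, adjusted p = 0.0083), while HAMP had 0.18 (adjusted p = 0.94).

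HAMP, LEPR, G6PC, MT1D, TFRC and DERL3 were close to their SLE-BDL level already on PN without ligation. HAMP had a median of 0.352 CPM in SLE-sham and 73.1 CPM in ENT-BDL, which gave -7.66 ± 0.52 for diet alone and -0.78 ± 0.35 for ligation alone. For LEPR these were -3.12 ± 0.30 and -0.50 ± 0.27, for G6PC -2.80 ± 0.30 and -0.47 ± 0.27, and for MT1D 1.33 ± 0.12 and -0.017 ± 0.12. TFRC had 1.54 ± 0.18 and -0.21 ± 0.18, and DERL3 3.34 ± 0.37 and -0.19 ± 0.38. Ligation on PN did not pass the test for any of these 6 genes (adjusted p = 0.46 to 0.97), and PN on ligation passed it for all 6 (adjusted p = 2.0e-15 to 3.3e-07). IGFBP1 differed, in that it was higher with ligation on PN (1.71 ± 0.45, adjusted p = 0.017) than in SLE-sham, which had 5.24 to 47.1 CPM (median 33.5). SLE-BDL replicates 5 and 9 held 269 and 368 CPM of IGFBP1, and the other SLE-BDL pigs 10.1 to 143 CPM, partly within the SLE-sham range.

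FMO5 and AOX1 moved with both steps. FMO5 had -3.33 ± 0.33 for diet alone, -1.15 ± 0.30 for ligation alone and -1.01 ± 0.31 (adjusted p = 0.043) for ligation on PN. AOX1 had -2.39 ± 0.25, -0.82 ± 0.23 and -0.84 ± 0.24 (adjusted p = 0.034). CXCL14 and NPC1L1 were higher in SLE-BDL than in either single group. For CXCL14 ligation on PN gave 1.80 ± 0.33 (adjusted p = 7.5e-04) and PN on ligation 1.60 ± 0.33 (adjusted p = 3.1e-04), and for NPC1L1 these were 1.73 ± 0.32 (adjusted p = 6.9e-04) and 1.07 ± 0.31 (adjusted p = 0.0091). CXCL8 was higher with ligation on PN (2.004 ± 0.56, adjusted p = 0.028) and lower with PN on ligation (-1.54 ± 0.52, adjusted p = 0.028).

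Whether the joint difference departed from the sum of both single differences on the log2 scale was tested as the interaction of diet and surgery. It passed an adjusted p of 0.05 for 377 of 16210 genes (2.33%), and for 764 of 16179 without ENT-sham replicate 2 (4.72%). Among 122 named genes it passed for 19. With all pigs, in LGALS3, SPP1, GPNMB and HMGCS1 each single step came close to the joint difference, which fell short of their sum. LGALS3 had 3.97 ± 0.45 for diet alone, 3.46 ± 0.45 for ligation alone and 4.08 for both, an interaction of -3.34. Without ENT-sham replicate 2 the joint value was 5.14 and the interaction -4.40. HMGCS1 had 2.07 ± 0.20, 1.63 ± 0.20 and 1.94. The falls of ADH4, SLCO1A2, FST and SELP were also smaller than the sum, and ADH4 went -3.53 ± 0.40, -2.42 ± 0.38 and -3.40. EPO and NOCT exceeded the sum. EPO had -0.36 ± 0.59 for diet alone, -1.60 ± 0.65 for ligation alone and 3.15 for both, an interaction of 5.12 ± 0.86 (adjusted p = 4.1e-04).

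**Figure D5:**
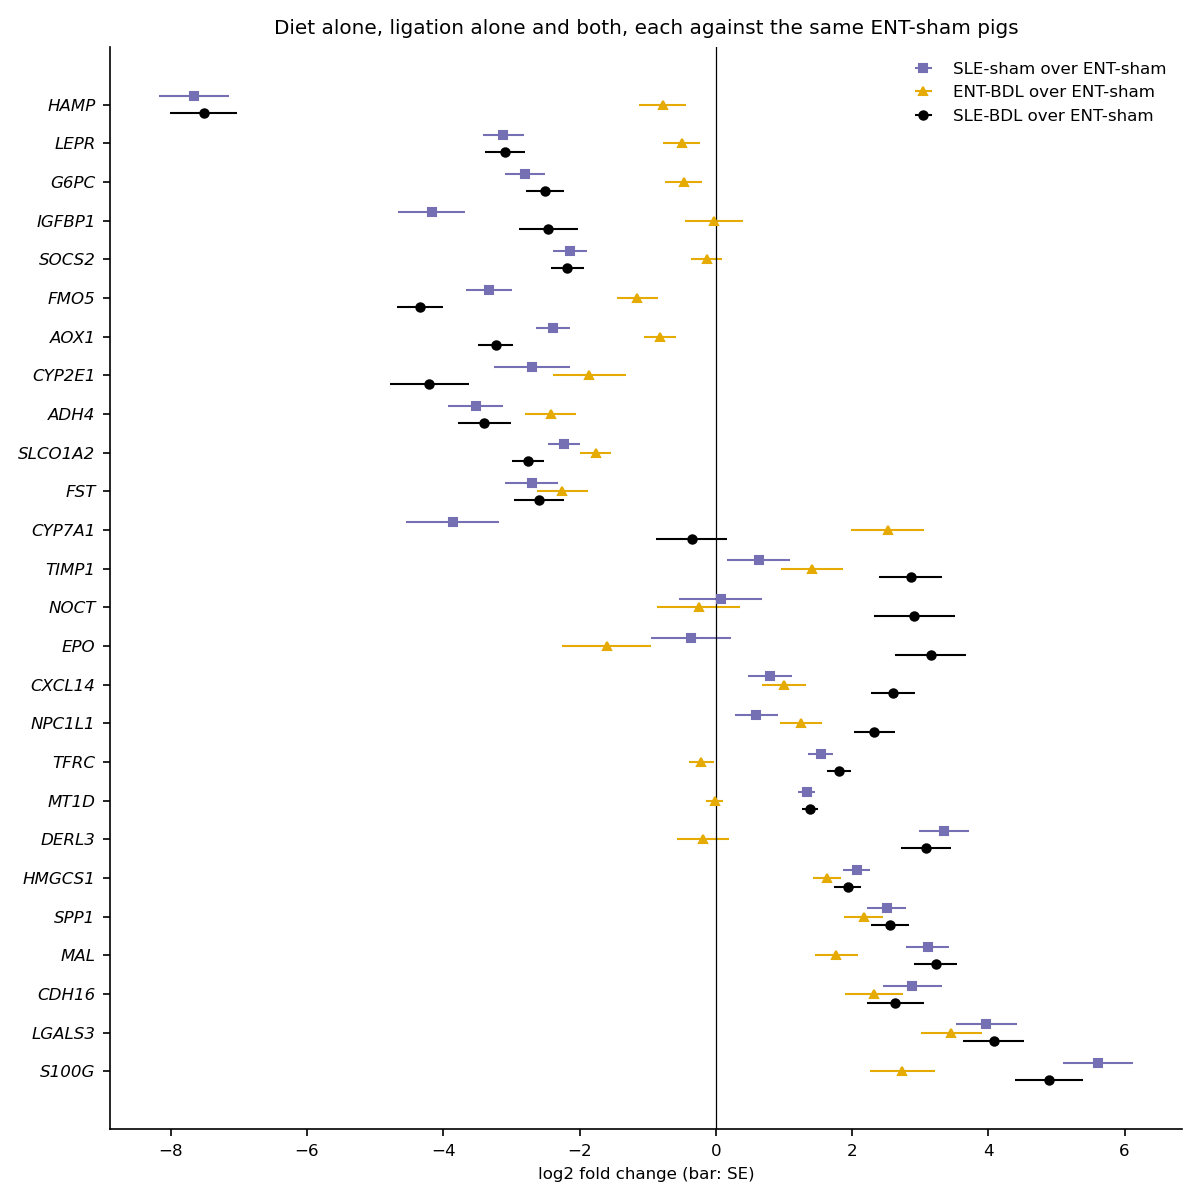
Log2 fold changes with SE bars of 26 genes for SLE-sham (purple squares), ENT-BDL (yellow triangles) and SLE-BDL (black circles), each over the same 12 ENT-sham pigs. For HAMP the square (-7.66) lies beside the circle (-7.52) and the triangle near 0 (-0.78), for CYP7A1 square and triangle lie on opposite sides of 0, and for EPO the circle alone lies to the right.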

How the data were processed

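RNA from whole liver of 60 pigs was sequenced as paired 150-base reads. Per the study's methods and the submitters' processing notes, the authors trimmed reads with fastp, aligned them to Sscrofa11.1 with HISAT2 2.0.5, assembled transcripts with StringTie 1.3.3 and counted reads per gene with featureCounts 1.5.0-p3, and deposited 1 table of raw counts per gene and pig. The library kit does not mark strand, so reads of a gene and its antisense partner cannot be told apart. Columns were tied to samples by title and groups to the labels. The 30335 named features matched a RefSeq gene table of Sscrofa11.1 in start and end, and 24 unnamed features (0.008% to 0.041% of a library) were left out of library sizes and tests.

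All 60 pigs and 6 groups entered 1 edgeR 4.0.16 fit (R 4.3.3; filterByExpr, TMM, robust quasi-likelihood F test), with Benjamini-Hochberg adjustment over 16210 genes. Called genes had an adjusted p under 0.05 and a fold above 2. The SE is the absolute log2 fold change divided by the square root of F. CPM levels compare pigs, not genes, since they are not per length. On simulated counts for this comparison (16042 genes) edgeR called 192 of 200 changed genes and 1 unchanged gene, and DESeq2 1.42.0 on 16210 genes called 194 and 2. The error rate of either tool on the real counts of these pigs was not tested.

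Named by rule were the 15 largest rises and 15 largest falls among genes with a symbol other than LOC that were called with and without ENT-sham replicate 2 and averaged 2 or more in log2 CPM. To these came, from each of 35 lists (863 tested genes), the 3 called members with the largest change in each direction, or the one with the smallest adjusted p where none was called, and CYP7A1, SOX9, MMP7, TGFB1, FGF19, HAMP, EPO, ABCC8 and CXCL8. Groups, members and lists were chosen with earlier results of these data known. The unit of replication is the pig. Replicate numbers did not pair pigs, and identifier numbers were tried as a block. Alternatives were another scaling (RLE), other filters, DESeq2, a fit on 2 groups, a tested fold of 1.2 (glmTreat), both blocks, and leaving out pigs. Those that left out both nearly matching ENT libraries, or SLE-BDL replicates 5, 7 and 9, and an unfiltered fit without SLE-BDL replicate 9, were chosen after seeing the data. Figures were drawn with matplotlib 3.10.9. No sequence was used here, and some members of the lists are not reported here.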

Additional observations from a re-analysis of the deposited data

Results flagged for a closer look

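In 19 named genes the effect of ligation differed between pigs on SLE and pigs on ENT, by the interaction term of the edgeR fit (adjusted p under 0.05, background 2.33% of 16210 genes). Each value is the log2 effect of ligation on SLE minus that on ENT. It was below 0 for genes that diet alone and ligation alone both raised, apart from TNNI2, where ligation alone had an adjusted p of 0.082. Among them were S100G at -3.47, LGALS3 at -3.34, CDH16 at -2.57, TREM2 at -2.53, SPP1 at -2.12, TNNI2 at -2, GPNMB at -1.95, HMGCS1 at -1.76, MAL at -1.65, IKBKE at -1.22 and SULT1A3 at -1.14. Without ENT-sham replicate 2 the values were -4.35 for S100G, -4.40 for LGALS3, -3.64 for CDH16 and -4.38 for TREM2, and the other 15 values moved by less than 0.5. Genes that each step alone lowered had values above 0, which were ADH4 at 2.55, FST at 2.36, SELP at 1.53, SLCO1A2 at 1.24 and IL6R at 0.48.

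EPO at 5.12 and NOCT at 3.09 were above 0 too, and both were called higher in SLE-BDL, while neither single step raised them past the threshold. NOCT rests on SLE-BDL replicates 5, 7 and 9. The 3 highest EPO values belong to replicates 4, 5 and 9, which no fit left out together. No gap of 1 pig was tested within ENT-sham (12 pigs) or SLE-BDL (11 pigs), whose size is beyond the range of that test.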

How the results depend on the processing

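The number of called genes (1191, with 661 higher and 530 lower) stayed within 1.5 times under RLE, DESeq2, the fit on 2 groups, no filter, glmTreat and the blocks. It was 533 (292 higher, 241 lower) of 12770 tested genes where every pig had to hold 10 counts. That rule drops genes near 0 CPM in either group. With no fold threshold the number was 5870 (3097 and 2773). Leaving out 1 pig gave 1102 to 1395 called genes, 588 to 827 higher and 502 to 568 lower, with the highest values all from ENT-sham replicate 2. Replicate numbers did not pair the pigs (11 pairs, correlation of deviations -0.161 to 0.239, with 3 of 11 closest to their own number), and the replicate block gave 1152 calls (629 higher, 523 lower) and lost HBB and OASL. The identifier number as a block gave 1376, lost SLC22A7, INHBE and OASL and gained ABCC8. Of 4218 recomputed values 4073 kept direction and side of the threshold, 114 fell below it, 21 passed it and 10 reversed, and 102 of 122 named genes kept call and direction under each alternative that tested them, of which some, such as the stricter filter, did not test every gene. CYP7A1, not called, reversed to 0.18 with the replicate block, to 0.12 without ENT-sham replicate 2 and to 0.12 without both nearly matching ENT libraries, with -0.79 to 0.12 over fits without 1 pig. ABCC8, which was not called, reversed to 1.34 with the replicate block, 2.66 with the identifier block, 1.42 without ENT-sham replicate 2, 1.42 without both libraries, 2.93 with the identifier block and without replicate 2, and 0.094 without SLE-BDL replicates 5, 7 and 9, with -0.79 to 1.42 over fits without 1 pig. NOCT reversed to -0.20 without SLE-BDL replicates 5, 7 and 9, and CLEC4G, CCL8, ATF5, CASQ1, HBB, SLC22A7, MMP7, NNMT, CXCL8, CYP2D25 and APOA4 lost their calls there. The interaction passed for 31 named genes without replicate 2 and 32 without both libraries, against 19. Except where construction shows it, the cause was not tested. Levels near 0 CPM, as for FGF19, ACTA1, VDR, TREM2, CKM, MMP8, CD79B, CASQ1 and IL1A, are limited by depth.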
